A study of Mus musculus with 6 samples.

Results

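The genes of the interleukin-2 (IL-2) receptor, its JAK-STAT5 relay and its SOCS feedback inhibitors were followed in mouse regulatory T cells (Tregs), the Foxp3-dependent CD4+ T cells that restrain immune responses. The set names 10 genes, Il2ra, Il2rb, Il2rg, Jak1, Jak3, Stat5a, Stat5b, Cish, Socs1 and Socs2. A gene was followed where a row of the array table is paired with its symbol alone, and of several such rows the brightest on average over the 6 arrays was taken. This gave 8 of the 10 genes, among 19937 genes with such a row. Jak3 shares its row with Insl3 and Il2rg was matched to no row, so neither was analysed here. All 8 genes lay above the filter on low values, which left 15037 genes to test.

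Total peripheral T cells of wild-type C57BL/6 mice, aged 6 to 8 weeks per the labels, were transferred into CD3ε-deficient recipients, which lack T cells of their own. In the competent group the recipients kept MHC class II, which presents peptides to the T cell receptor of CD4+ T cells. In the deficient group the recipients were double deficient for CD3ε and MHC class II. All transferred cells therefore came from wild-type donors in either group, and the groups differ in the host. On day 5 the CD4+ TCRβ+ CD25+ fraction was recovered by bead enrichment and flow sorting. Their RNA was put on 3 arrays per group, here called competent 1 to 3 and deficient 1 to 3. The labels call the replicates biological and do not say whether each is 1 mouse or a pool. The comparison asks whether the transcripts of IL-2 signalling hold in Tregs kept without MHC class II in the host.

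IL-2 binds a receptor of 3 chains. The α chain CD25 raises the affinity for IL-2, and the β and common γ chains carry the signal through the kinases JAK1 and JAK3. These phosphorylate STAT5A and STAT5B, which enter the nucleus and switch on target genes, among them Cish, Socs1 and Socs2, whose SH2-domain proteins damp the receptor. Tregs make little IL-2 themselves and depend on IL-2 from other T cells for survival and for Foxp3. Array values are transcript levels and do not measure receptor protein or STAT5 phosphorylation.

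The start of the Cish gene is shown because Cish is the textbook early target of STAT5, and that of Socs1 because interferons also induce this gene. The windows are from RefSeq on GRCm38.p6, 5′ to 3′ on the strand of the gene. Capitals mark matches to the STAT motif TTCNNNGAA in the Cish stretch (chr9:107296559-107296688, plus strand, from 100 bases before the annotated start to 30 after it). They mark matches to the core GAAANNGAA of the interferon response motif in the Socs1 stretch (chr16:10785555-10785669, minus strand, upstream of the start).
Cish: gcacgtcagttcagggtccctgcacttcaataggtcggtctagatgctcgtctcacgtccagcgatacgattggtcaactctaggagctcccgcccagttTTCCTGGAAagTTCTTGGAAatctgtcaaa
Socs1: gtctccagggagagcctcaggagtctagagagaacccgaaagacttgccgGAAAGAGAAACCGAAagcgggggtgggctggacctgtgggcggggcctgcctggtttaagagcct
The Cish window holds 2 separate STAT matches, TTCCTGGAA from base 1 and TTCTTGGAA from base 12 after the annotated start. The Socs1 window holds 2 interferon motif matches, GAAAGAGAA and GAAACCGAA, which overlap. Each motif was searched on both strands of all 32851 windows of 300 bases, from 250 before to 50 after a start. The STAT motif occurs in 8.30% of them and at least 2 times in 0.457%, the interferon motif in 8.56% and at least 2 times in 0.624%. Windows were found for 8 of the 10 genes, Jak3 and Il2rg included, with 10 windows in all. The STAT motif is in 1 of these 10, that of Cish, and the interferon motif in 2, those of Socs1 and Jak3. A match describes the letters and does not show binding.

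None of the 8 genes passed the threshold between the groups. With limma's moderated test, 0 of 8 had a Benjamini-Hochberg adjusted p under 0.05 over all tested genes, where 3.37% of all tested genes did. At an unadjusted p under 0.05 there were 2 of 8, Socs2 and Il2ra, against 18.9% of all tested genes. The median log2 difference, deficient minus competent, was 0.02 for the 8 genes and 0.02 for all tested genes. The median absolute difference was 0.09 for the 8 genes and 0.13 for all tested genes. In 3 of 8 genes the groups did not overlap, against 24.3% of all tested genes: Il2ra and Socs2 lay lower and Socs1 higher in the deficient arrays, as did 12.9% and 11.4% of all tested genes. Without competent 1 the count past the threshold was 1, Socs2. In such bulk values fewer cells of a type and less RNA per cell cannot be told apart.

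**Figure D1:**
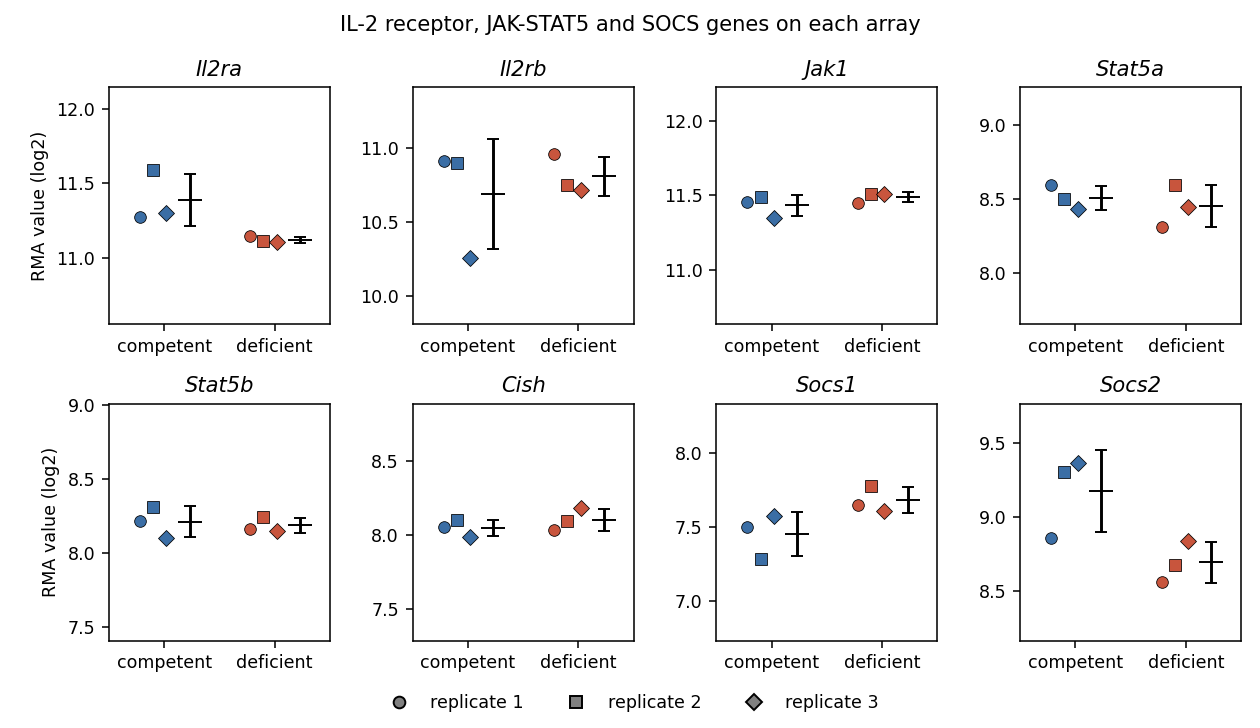
RMA values (log2, vertical axis, each panel spanning the same 1.6 units) of the 8 genes on the 3 competent (blue) and 3 deficient (red) arrays; black marks are the group mean with SD. The groups are apart for Il2ra, Socs1 and Socs2 and overlap for the other 5 genes, and competent 3 lies low for Il2rb.

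Il2ra encodes the α chain CD25, the protein by which the cells were sorted, so its values describe cells chosen for it in either group. It stood at 11.28, 11.59 and 11.30 on the competent and at 11.14, 11.11 and 11.11 on the deficient arrays (log2). Every deficient array lay below every competent one, and competent 2 was the highest. The means were 11.39 ± 0.18 and 11.12 ± 0.02 (SD, n = 3 each). The log2 difference of -0.27 (SE 0.11) had a 95% interval from -0.51 to -0.02, a 1.20-fold lower estimate. Its adjusted p by limma was 0.22 (0.12 to 0.44 over the alternatives), and without competent 2 the difference was -0.17. With the mean of the myeloid markers as a covariate it was -0.41 (SE 0.16).

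Il2rb encodes the β chain, which IL-2 and IL-15 share and which recruits JAK1. Its values were 10.91, 10.90 and 10.26 on the competent and 10.96, 10.75 and 10.71 on the deficient arrays. The groups overlap, and competent 3 lies below the other 5 arrays. The log2 difference was 0.12 (SE 0.17, 95% interval -0.27 to 0.51, limma adjusted p 0.77). Its sign rests on competent 3, without which it was -0.10 (SE 0.11). Competent 3 also had the lowest mean of the 12 myeloid markers, 6.22 against 6.87 to 7.94 on the other arrays, and with that mean as a covariate Il2rb stood at -0.32 (SE 0.18, adjusted p 0.42).

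Jak1, the kinase bound to the β chain, stood at 11.46, 11.49 and 11.35 on the competent and 11.45, 11.51 and 11.51 on the deficient arrays. The groups overlap, and the 6 values lie close together. The log2 difference was 0.06 (SE 0.09, 95% interval -0.15 to 0.26, limma adjusted p 0.79). That interval spans a deficient level from 0.90 to 1.20 times the competent one.

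Stat5a and Stat5b, the neighbouring genes of the closely related transcription factors that carry the signal, overlapped between the groups as well. Stat5a stood at 8.59, 8.50 and 8.43 on the competent and 8.31, 8.59 and 8.45 on the deficient arrays. Stat5b stood at 8.22, 8.31 and 8.11 on the competent and 8.16, 8.25 and 8.15 on the deficient arrays. The lowest value is on a deficient array for Stat5a and on a competent one for Stat5b. The log2 difference of Stat5a was -0.06 (SE 0.11, 95% interval -0.29 to 0.18), and its sign turned under quantile normalization (0.03) and without deficient 1 (0.01). That of Stat5b was -0.02 (SE 0.10, 95% interval -0.24 to 0.19), and its sign turned under quantile normalization (0.04) and without competent 2 (0.02). The limma adjusted p-values were 0.83 and 0.92.

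Among the feedback genes, Cish, which encodes the inhibitor CIS that STAT5 induces, stood at 8.06, 8.10 and 7.99 on the competent and 8.04, 8.09 and 8.18 on the deficient arrays. The groups overlap, with the highest value on deficient 3 and the lowest on competent 3. The means were 8.05 ± 0.06 and 8.10 ± 0.07 (SD, n = 3 each). The log2 difference was 0.06 (SE 0.09, 95% interval -0.15 to 0.27, limma adjusted p 0.80), and its sign turned under median centring (-0.00039). The interval spans a deficient level from 0.90 to 1.20 times the competent one.

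Socs1 encodes an inhibitor that binds JAK kinases and acts on IL-2 and interferon receptors. Its values were 7.50, 7.29 and 7.57 on the competent and 7.65, 7.78 and 7.61 on the deficient arrays. Each deficient array lay above each competent one, by a narrow margin between deficient 3 and competent 3. The log2 difference was 0.23 (SE 0.11, 95% interval -0.02 to 0.47), and its limma adjusted p of 0.30 did not pass. It stayed above 0 under all 15 alternatives, from 0.14 without competent 2 to 0.33 with the myeloid covariate.

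The largest difference of the 8 genes was that of Socs2, which encodes an inhibitor known for restraining growth hormone signalling. Its values were 8.86, 9.30 and 9.36 on the competent and 8.56, 8.68 and 8.84 on the deficient arrays. Every deficient array lay lower, although deficient 3 nearly met competent 1. The means were 9.18 ± 0.28 and 8.69 ± 0.14 (SD, n = 3 each), a 1.40-fold lower estimate. The log2 difference of -0.48 (SE 0.15, 95% interval -0.81 to -0.16) had a limma adjusted p of 0.11, and without competent 1 it was -0.64 with an adjusted p of 0.042. With the myeloid covariate it was -0.30 (SE 0.21, adjusted p 0.50). A second row named Socs2 gave 7.65, 7.62 and 7.68 on the competent and 7.34, 7.37 and 7.66 on the deficient arrays. Its groups overlap, since deficient 3 lies within the competent range. Its difference was -0.20 (SE 0.11, 95% interval -0.44 to 0.05, adjusted p 0.37), so the 2 rows share a sign and differ in size.

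**Figure D2:**
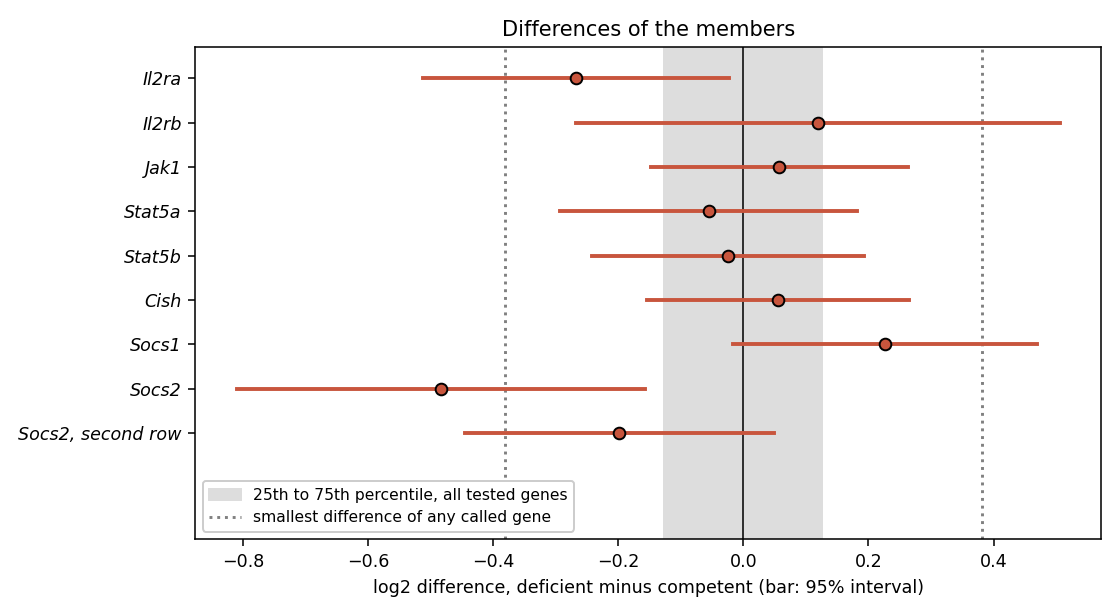
Log2 differences (deficient minus competent, horizontal axis) of the 8 genes and of the second Socs2 row, with limma's 95% interval; the grey band runs from -0.13 to 0.13, the 25th and 75th percentiles of all tested genes, and dotted lines mark 0.38, the smallest difference of any gene past the threshold. Jak1, Stat5a, Stat5b and Cish lie inside the band with intervals that stay short of the dotted lines.

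The patterns closest to Il2ra and Cish were sought by the root mean square distance of gene-centred log2 values over the 6 arrays. For Il2ra the 3 nearest genes were Gtf3a (0.028), Zfp654 (0.031) and Ccdc59 (0.032), where Il2ra itself varied by 0.17 around its mean. For Cish they were Slc50a1 (0.011), Znrd2 (0.023) and Chd8 (0.023), where Cish varied by 0.06. None of these 6 genes passed the threshold.

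The cytokines and receptors that share the common γ chain came next in the pathway. Of 12 listed, 8 were tested and 1 was higher past the threshold, against 1.34% of all tested genes, and the median difference was 0.05. At an unadjusted p under 0.05 there were 4 of 8, against 18.9% of all tested genes. Il15ra, which encodes the α chain of the IL-15 receptor that partners with Il2rb, stood at 7.49, 7.69 and 7.74 on the competent and 8.08, 8.13 and 8.35 on the deficient arrays. Every deficient array lay higher. The log2 difference was 0.55 (SE 0.11, adjusted p 0.034), a call that ended without any array but competent 3 (differences of 0.47 to 0.60, adjusted p 0.084 to 0.10) and under median centring (0.49, adjusted p 0.068). It also ended with the myeloid covariate, where the difference was larger, at 0.71, and the SE rose to 0.16 (adjusted p 0.095). Genes that did not pass were Il7r, the IL-7 receptor chain (0.43, SE 0.12, adjusted p 0.085), Il9r (-0.33, SE 0.11) and Il4ra (0.27, SE 0.11). Il7r passed under quantile normalization (0.036) and the trended robust prior (0.037). Il2 itself, named after its values were seen, stood between 5.29 and 5.60 on all arrays, near the filter value of 5.205. Il7, Il9, Il15 and Il21 lay under that value, and Il21 was lower past the threshold when no filter was set.

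Of the other JAK and STAT genes 1 rose. Stat2, a transcription factor gene of type I interferon signalling, stood at 8.61, 8.78 and 8.73 on the competent and 10.19, 9.81 and 9.92 on the deficient arrays. Its difference of 1.26 (SE 0.12, adjusted p 0.0014) passed under every alternative. It was 1 of 6 tested genes, against 1.34% of all tested genes higher past the threshold, and the list median was 0.22. Of the 6 genes, 3 had an unadjusted p under 0.05, where 18.9% of all tested genes did. Stat6 (0.24, SE 0.10, adjusted p 0.23), Stat4 (0.23, SE 0.10, adjusted p 0.26) and Stat3 (0.22, SE 0.12, adjusted p 0.36) did not pass.

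The interferon-stimulated genes are given beside Socs1 and Stat2. All 8 tested were higher past the threshold, against 1.34% of all tested genes. Their median was 1.49, beside a median of 0.98 for the 12 myeloid markers. This list, like the others, was chosen with earlier results of these data known. With the myeloid covariate 7 of the 8 passed, and Mx1 did not (1.36, SE 0.27, adjusted p 0.064). That covariate, the marker mean, ran from 6.22 to 7.23 on the competent and 7.16 to 7.94 on the deficient arrays. It largely follows the group, so this fit cannot tell the 2 apart. Led by smallest p in the main fit, the interferon-stimulated genes were Oasl2 (2.32, SE 0.13), Ifit1 (1.45, SE 0.12), Irf7 (1.78, SE 0.15), Usp18 (1.52, SE 0.15) and Bst2 (1.03, SE 0.11), each with an adjusted p of 0.0021 or lower. The part of interferon in the Socs1 values was not tested, nor that of myeloid cells in the interferon-stimulated genes.

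The other attenuators of cytokine receptors had 0 of 13 tested genes past the threshold by limma, against 3.37% of all tested genes, with a median of -0.02. At an unadjusted p under 0.05 there were 3 of 13, against 18.9% of all tested genes. The furthest were Ptpn2, a phosphatase that acts on JAK and STAT proteins (-0.39, SE 0.11, adjusted p 0.10), Socs3 (0.26, SE 0.11) and Ptpn6, which encodes the phosphatase SHP-1 (-0.23, SE 0.10). The arm from the receptor to PI3K and MAP kinase had 0 of 14 tested genes past the threshold and 0 at an unadjusted p under 0.05, with a median of -0.04. Akt2 (-0.24, SE 0.17), Akt1 (-0.24, SE 0.18) and Shc1 (-0.16, SE 0.17) lay furthest from 0.

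Of 18 tested genes that STAT5 is known to induce, 2 fell and 0 rose, against 2.03% of all tested genes lower past the threshold, and the median was 0.00085. The differences of 9 lay above 0 and of 9 below. At an unadjusted p under 0.05 there were 6 of 18, against 18.9% of all tested genes. In 5 of 18 every deficient array lay lower and in 1 higher, as in 12.9% and 11.4% of all tested genes. Nfil3, a transcription factor gene that cytokines induce in lymphocytes, stood at 8.19, 7.97 and 8.12 on the competent and 7.12, 7.08 and 7.03 on the deficient arrays. Its log2 difference was -1.02 (SE 0.10, adjusted p 0.0016), which passed under every alternative. Prdm1, which encodes Blimp-1, stood at 9.10, 8.86 and 8.71 on the competent and 8.26, 7.67 and 8.12 on the deficient arrays. It fell by 0.87 (SE 0.16, adjusted p 0.023), a call that ended without competent 1 (-0.77, adjusted p 0.072), competent 2 (-0.89, adjusted p 0.091) or deficient 2 (-0.70, adjusted p 0.056). It also ended with the myeloid covariate, where the difference was -0.97 and the SE rose to 0.25 (adjusted p 0.12). The survival gene Bcl2l1, which encodes Bcl-xL, (-0.44, SE 0.12, adjusted p 0.078), Gzmb, the granzyme B gene, (-0.43, SE 0.13, adjusted p 0.12) and the kinase gene Pim2 (0.26, SE 0.13, adjusted p 0.32) did not pass.

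Of 5 tested genes that STAT5 is known to repress, 1 fell and 0 rose, against 2.03% of all tested genes lower past the threshold, with a median of 0.20. The differences of 4 lay above 0 and of 1 below. At an unadjusted p under 0.05 there were 2 of 5, against 18.9% of all tested genes. In 3 of 5 every deficient array lay higher and in 1 lower, as in 11.4% and 12.9% of all tested genes. Il17a, the IL-17A gene, stood at 6.88, 6.29 and 6.44 on the competent and 5.93, 5.55 and 5.71 on the deficient arrays, with a difference of -0.81 (SE 0.16, adjusted p 0.030). That call ended without any array but competent 3 (differences of -0.93 to -0.64, adjusted p 0.056 to 0.11). It also ended with the myeloid covariate, where the difference was -0.83 and the SE rose to 0.25 (adjusted p 0.16). The deficient values lie near the filter value. Bcl6, a repressor of the Blimp-1 gene, (0.22, SE 0.14) and Il6ra (0.20, SE 0.10) did not pass, and Il7r is a member here too.

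**Figure D3:**
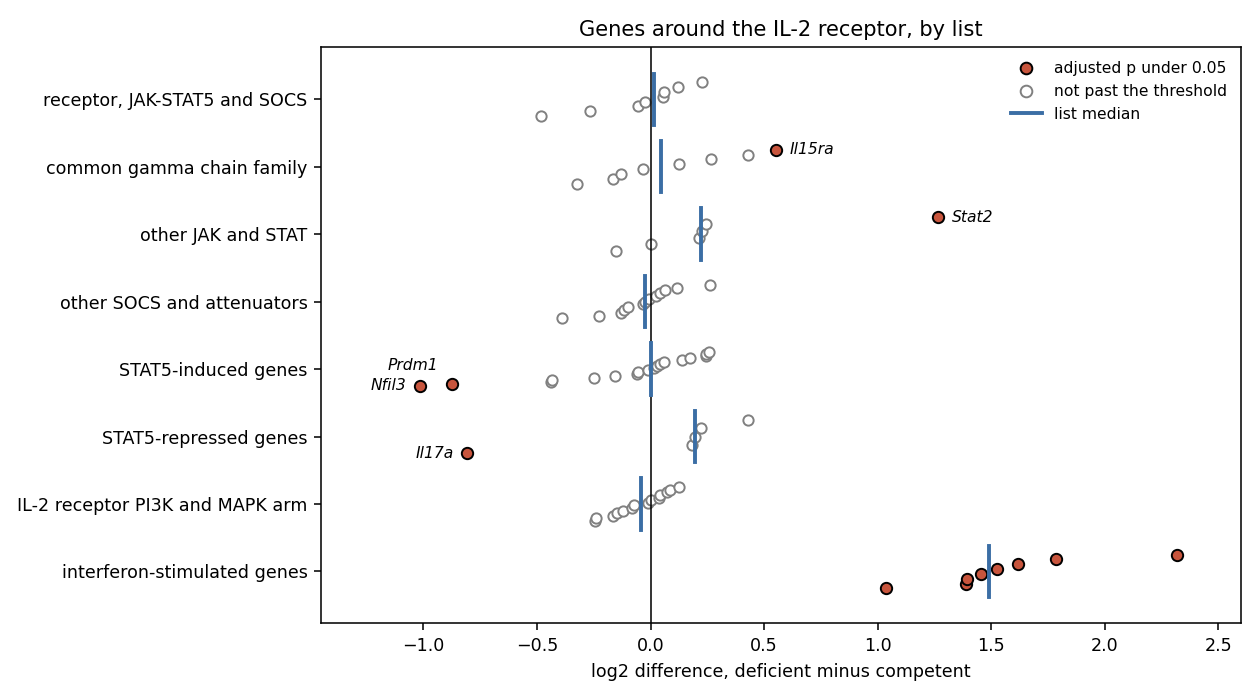
Log2 differences (deficient minus competent, horizontal axis) of every tested gene by list; filled points are past the threshold and blue bars are list medians. None of the 8 receptor, JAK-STAT5 and SOCS genes is filled, while all 8 interferon-stimulated genes are.

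Markers of Tregs and T cells were read on all 6 arrays. None of these arrays holds unsorted cells, so the purity of the sort was not tested. Means over the 4 Treg markers ran from 10.67 to 10.91 on the competent and 10.56 to 10.73 on the deficient arrays, and over 5 T cell markers from 11.14 to 11.31 and 11.05 to 11.13. By limma 0 passed the threshold in either list, and 2 of 4 and 0 of 5 had an unadjusted p under 0.05, against 18.9% of all tested genes. All 4 and all 5 differences lay below 0, with medians of -0.18 and -0.14. In 2 genes of each list every deficient array lay lower, as in 12.9% of all tested genes. The 12 myeloid markers ran from 6.22 to 7.23 and 7.16 to 7.94, with a median of 0.98 and 10 of 12 above 0. Past the threshold was 1, the macrophage gene Adgre1. At an unadjusted p under 0.05 there were 11, against 18.9% of all tested genes. These 11 include Itgam (-0.43, SE 0.13) and Cst3 (-0.28, SE 0.10), which lay lower on every deficient array. Both also enter the marker mean used as the covariate. With the replicate number as a block 8 of the 12 markers were higher past the threshold, and with array weights 3 were higher and 1 lower. Under the trended robust prior, under median centring or after quantile normalization 0 passed. With 1 array left out the count was 3 higher without deficient 3, 1 lower without competent 3 and 0 without each of the other 4. The B cell (3 tested), CD8 T and NK (3) and erythroid (2) markers ran from 6.07 to 6.35, 7.60 to 7.82 and 5.63 to 5.85 on the competent arrays. On the deficient arrays they ran from 6.16 to 6.23, 7.93 to 8.11 and 5.92 to 6.16. None passed the threshold, and 2, 3 and 1 had an unadjusted p under 0.05, against 18.9% of all tested genes. The differences of 2 of 3, 3 of 3 and 2 of 2 lay above 0, with medians of 0.02, 0.32 and 0.35. The B cell gene Ms4a1 and the NK cell genes Klrb1c and Ncr1 lay under the filter value.

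**Figure D4:**
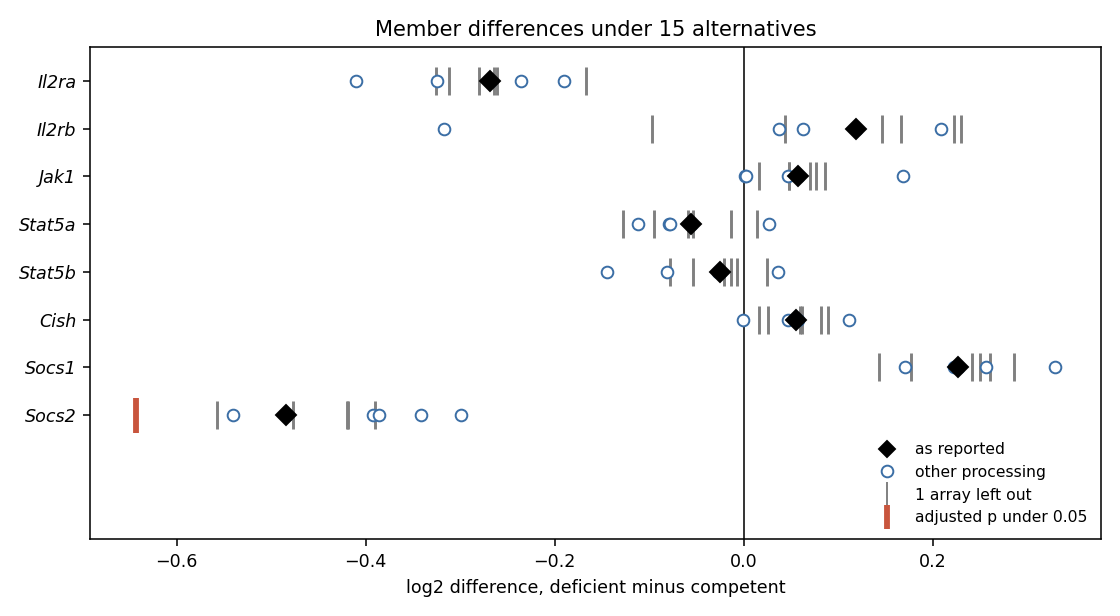
Log2 differences (deficient minus competent, horizontal axis) of the 8 genes as reported (diamonds), under 9 other processing choices (circles) and with 1 array left out (bars). Il2ra and Socs2 stay below 0 and Socs1 and Jak1 above 0 throughout, and the red bar is Socs2 without competent 1, the 1 setting past the threshold.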

How the data were processed

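The authors deposited 1 log2 value per array for 28101 rows, made by robust multi-array averaging (RMA) in the R package affy, per the submitters' processing notes. Biotin-labelled cDNA from 100 ng of total RNA was put on 1-colour Affymetrix arrays, per the labels' protocols. The version of affy is not given in the sources used here, and the log base was taken as 2, that of RMA. Array medians lay between 6.11 and 6.25, and the number of arrays limits the precision.

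Of the rows, 21640 carry 1 gene symbol in the platform annotation, updated by Entrez identifier for 21553, while 1321 carry several and 5140 none. The brightest row on average stood for each gene, and genes with a mean under 5.205, the 25th percentile, were left out. The 15037 genes left entered limma 3.58.1 under R 4.3.3 (lmFit, eBayes, two-sided, no covariate, 9.40 degrees of freedom with the prior), with Benjamini-Hochberg adjustment and a threshold of 0.05. Errors of differences are limma's SE, and the p-values reflect only how these preparations vary, which may be technical.

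The genes, lists and alternatives were chosen with earlier results of these data known. All 8 genes were named. Of each other list, up to 5 genes past the threshold by smallest p were named, and up to 3 more with the largest differences. Alternatives were quantile normalization, median centring, no filter or a filter at the median, a trended robust prior, array weights, the replicate block, the mean of the myeloid markers as a covariate, the mean of all rows of a gene, and leaving out each array. The fit was first tested on simulated data with planted log2 differences. It recovered 21 of 50 planted differences of 0.5 and 41 of 50 of 1, with 7 false calls among 167. A difference of the size seen for Socs2 (-0.48) could thus be missed.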

Additional observations from a re-analysis of the deposited data

How the results depend on the processing

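The count of the 8 genes past the threshold was 0 under 14 of 15 alternatives and ran from 0 to 1 with 1 array left out. Their median difference ran from -0.09 to 0.05 with 1 array left out and was -0.11 with the myeloid covariate. The count over all genes was 507 (201 higher, 306 lower), ran from 159 to 708 with 1 array left out and was 105 with that covariate. It was 246 higher and 230 lower under quantile normalization and 120 and 288 under median centring. Signs turned for Il2rb with the myeloid covariate (-0.32) and without competent 3 (-0.10), for Stat5a (0.027) and Stat5b (0.036) under quantile normalization, without deficient 1 for Stat5a and without competent 2 for Stat5b, and for Cish under median centring (-0.00039). With 1 array left out the differences ran from -0.10 to 0.23 for Il2rb, from -0.13 to 0.014 for Stat5a and from -0.078 to 0.025 for Stat5b. The causes were not tested. With the replicate number as a replicate block, 0 of the 8 genes and 564 of all genes passed, and Socs2 had an adjusted p of 0.056. The labels do not say that the numbers pair the arrays, and same-numbered arrays correlated at -0.02, -0.14 and 0.07 in their deviations, so competent 1 and 2 did not match their own number best. No gene with an absolute difference under 0.38 passed the threshold, and some larger ones did not pass either, such as those of Socs2 (-0.48), Bcl2l1 (-0.44) and Il7r (0.43).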
